A study of Mus musculus with 22 samples.

Results

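The DnaJ proteins, also called Hsp40 or J-domain proteins, are the co-chaperones that bring client proteins to Hsp70 and start its ATP hydrolysis through their J domain. Class A members carry the J domain with a glycine and phenylalanine-rich stretch and a zinc-binding region. Class B members lack the zinc-binding region, and class C members share the J domain alone and differ widely in the rest of the protein. In the nervous system they are known for folding at the synapse, for uncoating clathrin-coated vesicles and for keeping aggregation-prone proteins in solution. Members were chosen by symbol from the table of expression values (Dnaja, Dnajb or Dnajc followed by a number), which gave 41 of 17306 genes: 4 of class A, 11 of class B and 26 of class C. All 41 were among the 16765 genes kept for testing, those with a log2 CPM (reads of a gene scaled to the library's reads on all genes) of at least -1 in 5 or more of the 22 libraries.

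The series measured RNA in lumbar (L4-L6) spinal cord of wildtype C57BL6J mice that had all received 1 mg sodium iodoacetate (MIA) in a knee, a model of joint pain, and were 12 to 14 weeks old at collection on day 30. Mice were given the FKBP51 inhibitor SAFit2 at 100 mg/kg in a slow-release gel (VPG) or the gel alone. Early dosing was on days -3 and 4 by the design text, late dosing on days 20 and 27. The groups are Early SAFit2 (5 mice), Early Vehicle (6), Late SAFit2 (5) and Late Vehicle (6). The sample titles of Early SAFit2 read SAFit1 while their treatment entry reads SAFit2, and that entry gives days 3 and 4. The labels also give early and late as the batch, so timing and batch cannot be told apart. They do not give the sex of the mice; a figure of the supplement on gait after the same early and late dosing is of males. For the tissue, the paper names dorsal horn quadrants of the injured side where the labels give L4-L6 cord. SAFit2 was compared with its own vehicle within each timing. Marker genes of the labelled tissue were present: those of neurons (top gene Snap25) and astrocytes (Slc1a2) summed to mean values of 5424 and 3807 CPM in Early Vehicle, and no gene of these lists was at 0 in every library. The tissue is a mixture, so fewer cells of a kind and less RNA per cell cannot be told apart in any result given here.

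The family was broadly expressed in this tissue. Levels were compared between genes as CPM per kilobase of the longest transcript, averaged over the 22 libraries. The 3 highest of class A were Dnaja2 (83.5) and Dnaja1 (74.1), cytosolic partners of Hsc70, and Dnaja3 (23.9), the mitochondrial member. In class B they were Dnajb6 (54.7), which holds polyglutamine proteins in solution, Dnajb2 (45.2), a neuronal member that passes clients to the proteasome, and Dnajb9 (29.4), a partner of BiP in the endoplasmic reticulum (ER). In class C they were Dnajc7 (99.4), which links Hsp70 and Hsp90, Dnajc8 (78.3), a splicing factor, and Dnajc6 (40.9), the neuronal auxilin that uncoats clathrin-coated vesicles. The synaptic vesicle protein Dnajc5 followed at 36.9. Dnajb1, the main heat-inducible member, stood at 16.4 and Dnaja4, also heat-inducible, at 16.6. The lowest was Dnajb13, a protein of motile cilia, at 0.267 and with 0 to 27 reads per library. Variation between mice of a group was modest: the median residual SD of the members was 0.24 log2, against 0.32 over all genes tested. The members and all genes were not matched for level of expression here, so the gap is not read as a trait of the family.

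**Figure D1:**
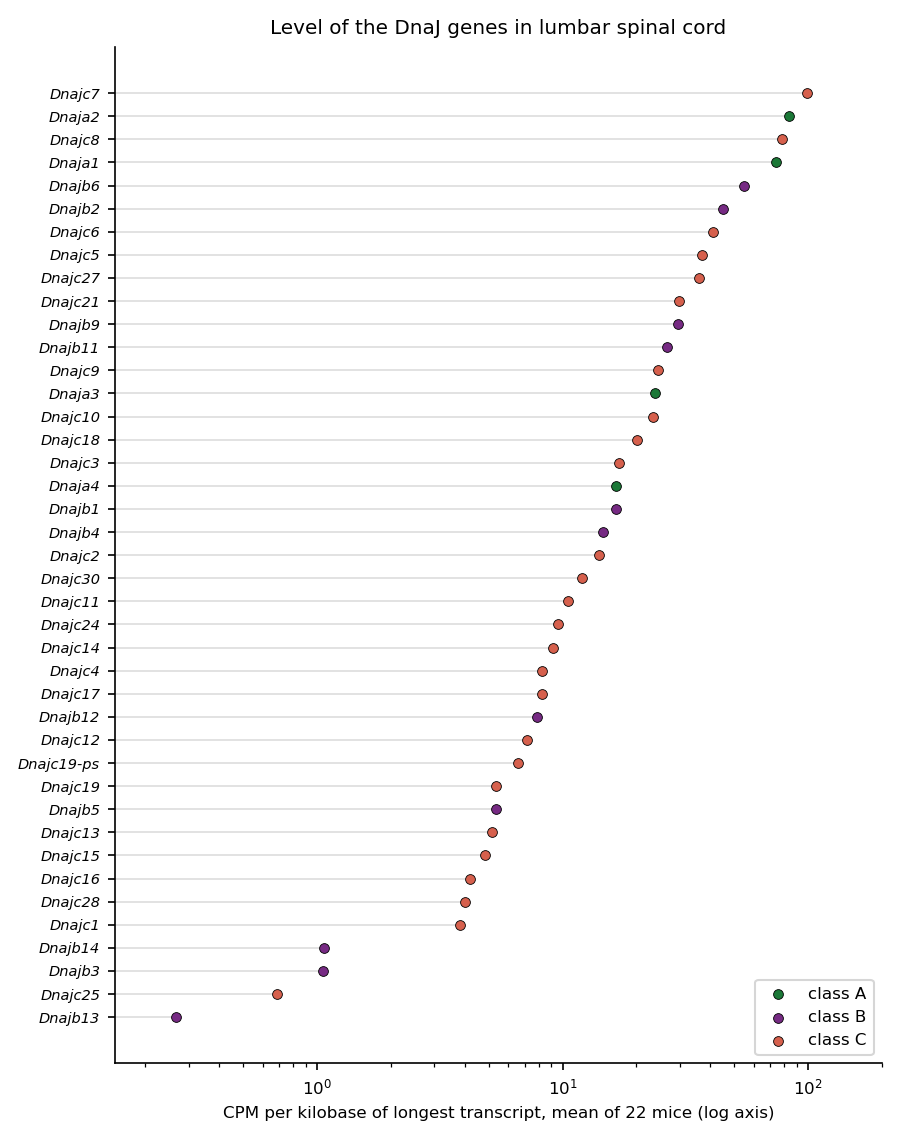
Mean level of each of the 41 DnaJ genes over the 22 libraries, in CPM per kilobase of the longest transcript on a log axis, coloured by class. Dnajc7 (99.4) is the highest and Dnajb13 (0.267) the lowest.

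Of the 2 comparisons of SAFit2 with its vehicle, only the late one had DnaJ genes that passed the test. In the same fit 0 members were called on the early minus late difference, so a difference in effect by timing is not shown. In Late SAFit2 against Late Vehicle, 6 of the 41 members (14.6%) had a limma adjusted p under 0.05 (two-sided, adjusted over all 16765 genes) together with a change of at least 1.2-fold. All 6 were higher: Dnaja1, Dnajb6, Dnajb9, Dnajc19-ps, Dnajc21 and Dnajc25. Of all genes tested, 12.1% were called by the same rule, 5.33% as higher and 6.72% as lower, so the family holds more higher calls and fewer lower calls than the table as a whole; that difference was not tested. At an unadjusted p under 0.05 there were 19 members (46.3%), 15 higher and 4 lower, against 34.5% of all genes, 15.6% higher and 19.0% lower. The 2 groups did not overlap at all for 1 member, Dnajc25, against 1.71% of all genes. With voom weights 5 members were called of the 40 that pass its filter. The count depends on single libraries: it was 0 without Late SAFit2 2, 4 or 5 or without Late Vehicle 1, 3, 4 or 5, and 17 without Late Vehicle 6. It also depends on the fit: it was 0 with GC content and length removed, 0 with the GC slope of each library as a covariate, 0 with only the 2 groups in the fit and 1 with no variance trend, and it was 10 with a filter at log2 CPM of 1, 14 with the replicate block and 20 with library quality weights.

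**Figure D2:**
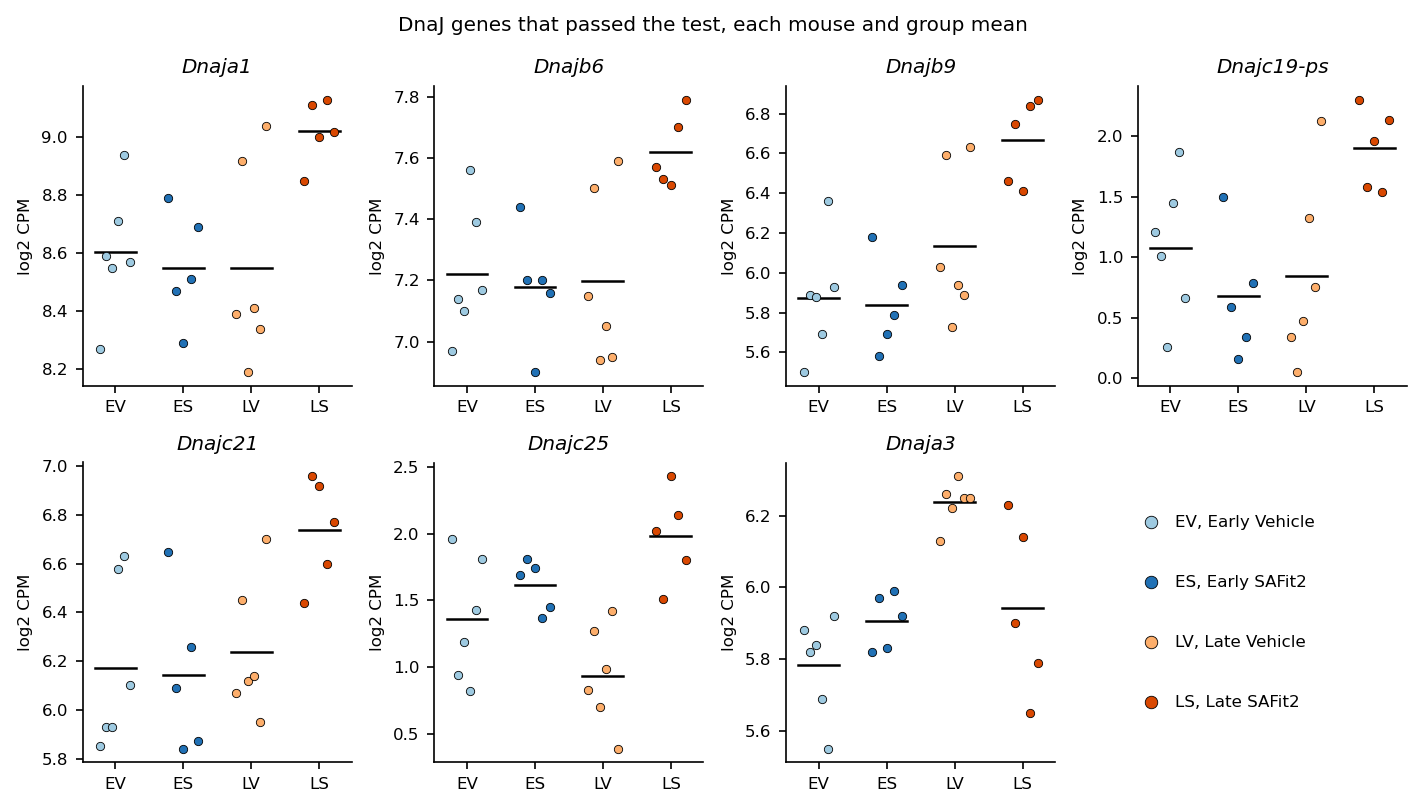
Log2 CPM of the 6 DnaJ genes called in the late comparison and of Dnaja3, 1 point per mouse, with a bar at the mean of each of the 4 groups (EV and ES, Early Vehicle and Early SAFit2; LV and LS, Late Vehicle and Late SAFit2). Dnajc25 in Late SAFit2 sits between 1.51 and 2.43, above all Late Vehicle mice, of which the highest is 1.42.

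The 3 cytosolic or nuclear members among the 6 are common messages. Dnaja1 (chromosome 4, 40722468 to 40734965) had log2 CPM of 8.85, 9.11, 9.0, 9.13 and 9.02 in Late SAFit2, against 8.19 at the lowest, 8.40 at the median and 9.04 at the highest in Late Vehicle. Only Late Vehicle 2 (8.92) and 6 (9.04) reached the range of the treated mice. The difference was 0.47 with a standard error (SE) of 0.14, 1.39-fold (limma p 0.00208, adjusted 0.0370; exact permutation p 0.0325). Dnajb6 (chromosome 5, 29735898 to 29786478) read 7.57, 7.53, 7.51, 7.70 and 7.79 in Late SAFit2, and 6.94, 7.10 and 7.59 at the lowest, median and highest of Late Vehicle. Late Vehicle 6 alone fell among the treated mice. Its difference was 0.43, SE 0.13, 1.34-fold (limma p 0.00232, adjusted 0.0382; exact permutation p 0.0216). Dnajc21 (chromosome 15, 10446763 to 10470568), which takes part in ribosome assembly, read 6.44, 6.96, 6.92, 6.60 and 6.77, and in Late Vehicle 5.95, 6.13 and 6.70. Late Vehicle 2 (6.45) and 6 (6.70) again overlapped the treated range, and the difference was 0.50, SE 0.17, 1.41-fold (limma p 0.00558, adjusted 0.0487; exact permutation p 0.0173).

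Dnajb9 and Dnajc25 encode ER proteins. Dnajb9 (chromosome 12, 44205897 to 44210068) read 6.46, 6.75, 6.41, 6.84 and 6.87 in Late SAFit2, against 5.73, 5.99 and 6.63 at the lowest, median and highest of Late Vehicle. Late Vehicle 2 (6.59) and 6 (6.63) were once more the ones inside the treated range. The difference was 0.53, SE 0.16, 1.44-fold (limma p 0.00316, adjusted 0.0416; exact permutation p 0.0303). Dnajc25 (chromosome 4, 58994799 to 59025573), a membrane protein, read 2.02, 1.51, 2.43, 2.14 and 1.80, against 0.39, 0.91 and 1.42 in Late Vehicle. The 2 groups did not overlap, and the difference was 1.05, SE 0.26, 2.07-fold (limma p 0.000359, adjusted 0.0324; exact permutation p 0.00433). It is a scarce message, with 15 to 98 reads per library.

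The sixth, Dnajc19-ps (chromosome 7, 103882573 to 103883104), is a pseudogene of the mitochondrial import factor Dnajc19. It read 2.30, 1.58, 1.96, 1.54 and 2.13 in Late SAFit2, and 0.05, 0.61 and 2.12 at the lowest, median and highest of Late Vehicle, on 16 to 87 reads per library. Late Vehicle 6 lay within the treated range and the other 5 below it. The difference was 1.06, SE 0.35, 2.09-fold (limma p 0.00527, adjusted 0.0477; exact permutation p 0.0216). Its parent gene Dnajc19 had 0.33, SE 0.19 (adjusted p 0.224). Reads of the parent may be counted on the pseudogene, which these values cannot show. In each of the 6 genes all 5 Late SAFit2 mice were above the Late Vehicle median.

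Several members came close to the threshold without passing it. Dnaja2 had 0.32, SE 0.11 (adjusted p 0.0507), the ER co-chaperone Dnajc3 0.32, SE 0.11 (0.0543), and the ribosome-bound Dnajc2 0.54, SE 0.19 (0.0572). On the lower side were 2 mitochondrial members, Dnaja3 with -0.29, SE 0.10 (0.0534), and Dnajc11, a protein of the inner membrane junctions, with -0.35, SE 0.12 (0.0557). With GC content and length removed these were nearer to 0: 0.08 for Dnaja2 (adjusted p 0.642), 0.10 for Dnajc3 (0.505), 0.26 for Dnajc2 (0.387), -0.19 for Dnaja3 (0.258) and -0.12 for Dnajc11 (0.649). The members best known for heat induction did not pass: Dnajb1 had -0.11, SE 0.12 (adjusted p 0.530), and Dnaja4 had 0.10 (0.562). Dnajb1 read 5.71, 5.67, 5.55, 5.43 and 5.54 in Late SAFit2 and 5.35, 5.70 and 6.15 at the lowest, median and highest of Late Vehicle, so the treated mice lay inside the vehicle range. Dnajb11, another partner of BiP, had 0.22 (0.213), Dnajb2 had -0.21 (0.155), Dnajc5 had -0.14 (0.476) and Dnajc6 had 0.03 (0.889). The signs of some of these turn with GC content and length removed, to 0.12 for Dnajb1, 0.26 for Dnajb2 and -0.02 for Dnajc6. Dnajc2 and Dnajc19 were picked for mention after their values were seen.

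Promoter sequences of RefSeq, build GRCm38.p6, from 250 bases before to 50 after each start site, matched 34 of the 41 members. A heat shock element, taken as GAA and TTC facing one another across 2 bases in either arrangement, was present for 6 of the 34 (17.6%): Dnaja1, Dnaja4, Dnajb4, Dnajb6, Dnajc10 and Dnajc27. It was present for 17% of 27025 genes, a like share; the 2 shares were not tested against one another. The ER stress element, CCAAT and CCACG with 9 bases between them, occurred for 1 member, Dnajc3, against 0.137% of genes. Some genes have more than 1 start site, and a gene was counted if any of them had a match. Other start sites of Dnaja1, Dnaja4 and Dnajb4 had no heat shock element. Of the 6 called members 5 have a promoter entry (Dnajc19-ps has none), of which Dnaja1 and Dnajb6 carry a heat shock element and 0 the ER stress element. The 4 sequences printed are those of the 2 called genes with an element, of the heat-inducible Dnaja4, which was not called, and of Dnajc3. Capitals mark the matches: they begin at -124 from the start site in Dnaja1, at -46 and -41 in Dnajb6 (2 overlapping matches), at -90 and -52 in Dnaja4, and at -105 in Dnajc3.
Dnaja1 promoter, chromosome 4, 40722218 to 40722517, plus strand: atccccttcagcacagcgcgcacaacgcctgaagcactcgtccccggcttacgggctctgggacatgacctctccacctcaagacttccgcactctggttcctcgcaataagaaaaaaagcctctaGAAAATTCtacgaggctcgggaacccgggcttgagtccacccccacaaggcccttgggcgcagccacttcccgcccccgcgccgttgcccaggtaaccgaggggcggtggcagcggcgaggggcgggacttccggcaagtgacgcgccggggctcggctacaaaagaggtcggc
Dnajb6 promoter, chromosome 5, 29735648 to 29735947, plus strand: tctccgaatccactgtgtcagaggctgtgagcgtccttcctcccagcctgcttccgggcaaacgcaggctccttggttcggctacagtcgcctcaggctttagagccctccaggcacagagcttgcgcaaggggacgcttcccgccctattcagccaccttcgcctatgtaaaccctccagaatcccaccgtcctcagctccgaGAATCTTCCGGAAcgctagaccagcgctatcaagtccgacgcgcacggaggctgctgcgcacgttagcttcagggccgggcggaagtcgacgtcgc
Dnaja4 promoter, chromosome 9, 54699309 to 54699608, plus strand: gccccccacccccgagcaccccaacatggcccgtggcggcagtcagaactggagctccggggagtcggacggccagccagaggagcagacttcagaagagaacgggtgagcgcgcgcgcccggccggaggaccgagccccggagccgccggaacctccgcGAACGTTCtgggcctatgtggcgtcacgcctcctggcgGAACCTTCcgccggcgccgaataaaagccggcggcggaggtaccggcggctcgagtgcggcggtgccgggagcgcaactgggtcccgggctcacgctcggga
Dnajc3 promoter, chromosome 14, 118937682 to 118937981, plus strand: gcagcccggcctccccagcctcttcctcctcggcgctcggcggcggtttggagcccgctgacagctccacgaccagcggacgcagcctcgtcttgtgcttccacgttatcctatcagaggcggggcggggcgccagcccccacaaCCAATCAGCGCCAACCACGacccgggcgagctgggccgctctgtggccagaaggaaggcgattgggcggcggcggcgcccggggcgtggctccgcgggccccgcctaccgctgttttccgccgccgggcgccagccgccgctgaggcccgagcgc

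Across the whole family the late differences ran from -1.06 to 1.06 with a median of 0.21, 25 members above 0 and 16 below, where all genes had a median of -0.05 with 7726 above 0 and 9039 below. With GC content and length removed the member median was 0.09, and with the GC slope of each library as a covariate 0.01. Class A had a median of 0.21 (1 of 4 called) and class C 0.22 (3 of 26 called), which with that covariate were 0.0066 and 0.016. Class B had -0.11 (2 of 11 called), a sign that is not stable: the median was 0.11 without Late SAFit2 1, 0.06 without Late SAFit2 4, 0.22 with a filter at log2 CPM of 1, 0.06 with voom weights, 0.11 with GC content and length removed and 0.04 with the GC slope as a covariate. By the compartment in which the proteins work, the 16 members of cytosol and nucleus had a median of 0.31 (3 called) and the 10 of the ER 0.28 (2 called), which were 0.18 and 0.11 with GC content and length removed and 0.036 and 0.080 with the GC slope as a covariate. The 6 mitochondrial members had 0.03 (-0.14 with the GC slope as a covariate) with 0 called by limma, 2 at an unadjusted p under 0.05 and 0 with voom weights. The 4 of vesicles and endosomes had -0.01 (0.05 with median centring), with 0 called by limma, 0 at an unadjusted p and 0 with voom weights. The 4 members not assigned to a compartment had -0.25 (1 called; -0.07 with GC content and length removed, -0.05 with the GC slope as a covariate), and Dnajb13 of the axoneme had -1.06 and was not called (-0.52 without Late SAFit2 3, -1.70 with the GC slope as a covariate).

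Summed over the family, which weighs the common messages, expression was 3019 ± 199 CPM (mean and SD) in Early Vehicle, 3041 ± 163 in Early SAFit2, 3147 ± 258 in Late Vehicle and 3547 ± 55.5 in Late SAFit2. Late SAFit2 mice ranged from 3473 to 3606 and Late Vehicle mice from 2882 to 3477, so the 2 groups overlapped slightly. Class A moved from 745 to 931 CPM between Late Vehicle and Late SAFit2, class B from 611 to 688 and class C from 1792 to 1927. The 2 groups overlapped for class A (623 to 951 and 863 to 967) and class C (1694 to 1929 and 1833 to 2024). They did not for class B (565 to 653 and 656 to 735). The mean log2 of these sums, taken per library, differed by 0.34, 0.17 and 0.11. In the early comparison it differed by -0.03, -0.03 and 0.04. These sums carry no correction for the GC content of the genes and were not tested.

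**Figure D3:**
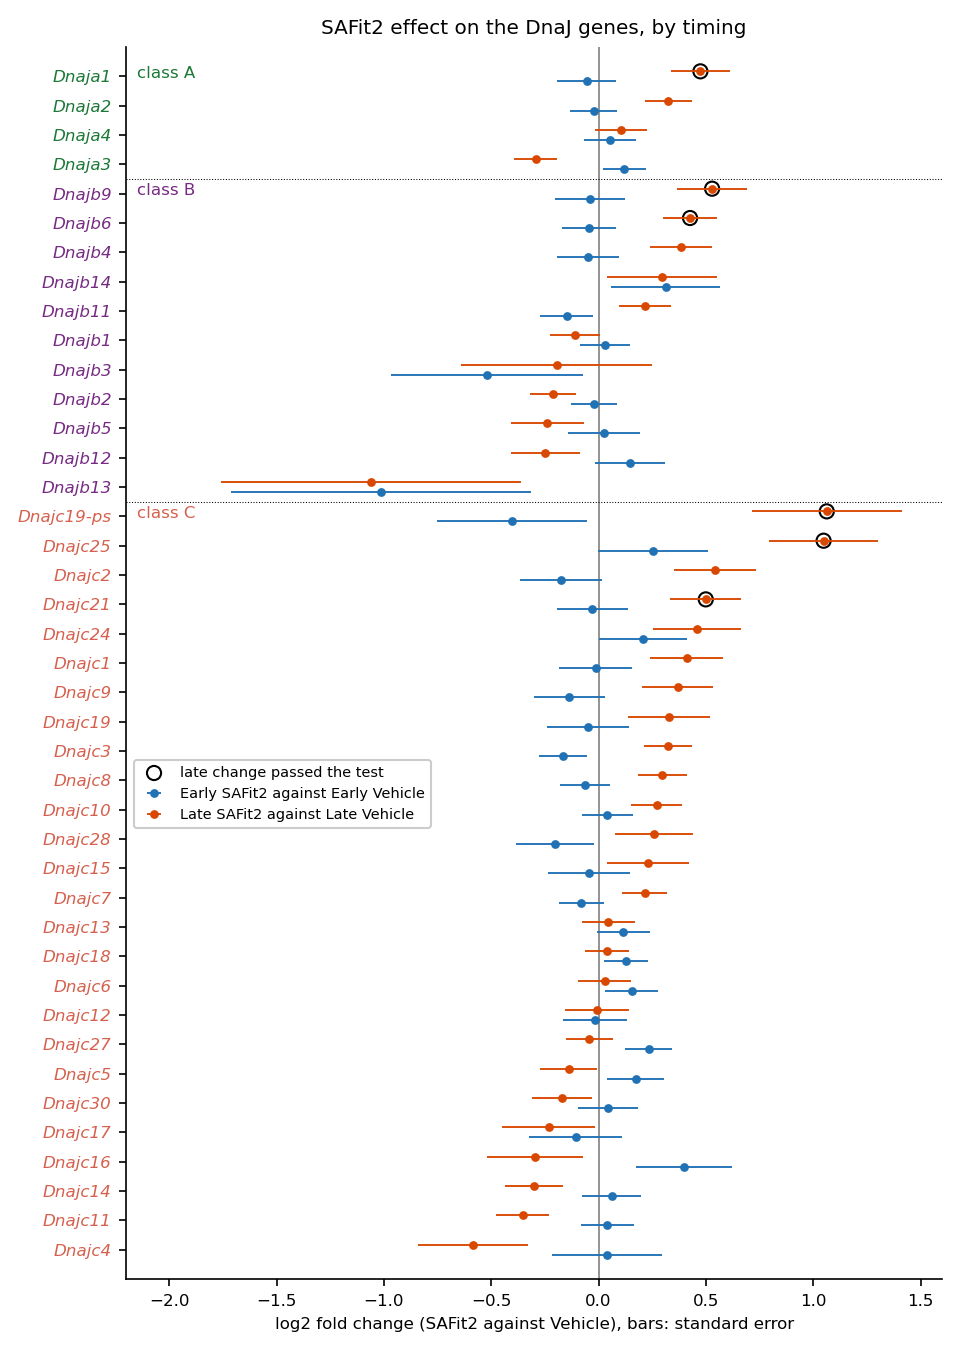
Log2 difference of each of the 41 DnaJ genes, SAFit2 against its vehicle, with SE, for late and early dosing, arranged by class. The late differences run from -1.06 to 1.06 with a median of 0.21 (0.01 with the GC slope of each library as a covariate), and the early ones have a median of -0.02.

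The direction of a member in the late comparison followed the GC content of its transcript. The 14 members below 45% GC had a median difference of 0.33 and 13 of them were above 0; the 4121 genes in that range also had 0.33. The 12 members from 45 to 50% had 0.08 (all genes in range 0.08), and the 15 at 50% or more had -0.23 (all genes in range -0.31), with 3 above 0. Across the 41 members Pearson's r between GC content and late difference was -0.676 and Spearman's rho -0.753, and over all genes with a GC value they were -0.612 and -0.677; genes are not independent replicates, so no p is given. In the early comparison r was -0.0214 and rho 0.158. Against the upper quartile of all genes of like GC content, Dnaja1 (41.2% GC) lay just below (0.47 and 0.49), Dnajb9 (40.6%) just above (0.53 and 0.49) and Dnajc21 (42.1%) a little above (0.50 and 0.43). Dnajb6 (50.9%; 0.43 and 0.07), Dnajc25 (45.7%; 1.05 and 0.33) and Dnajc19-ps (43.6%; 1.06 and 0.43) lay well above it. These are the 6 members called higher in this same comparison, which by itself favours a high place, so no conclusion is drawn from it.

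**Figure D4:**
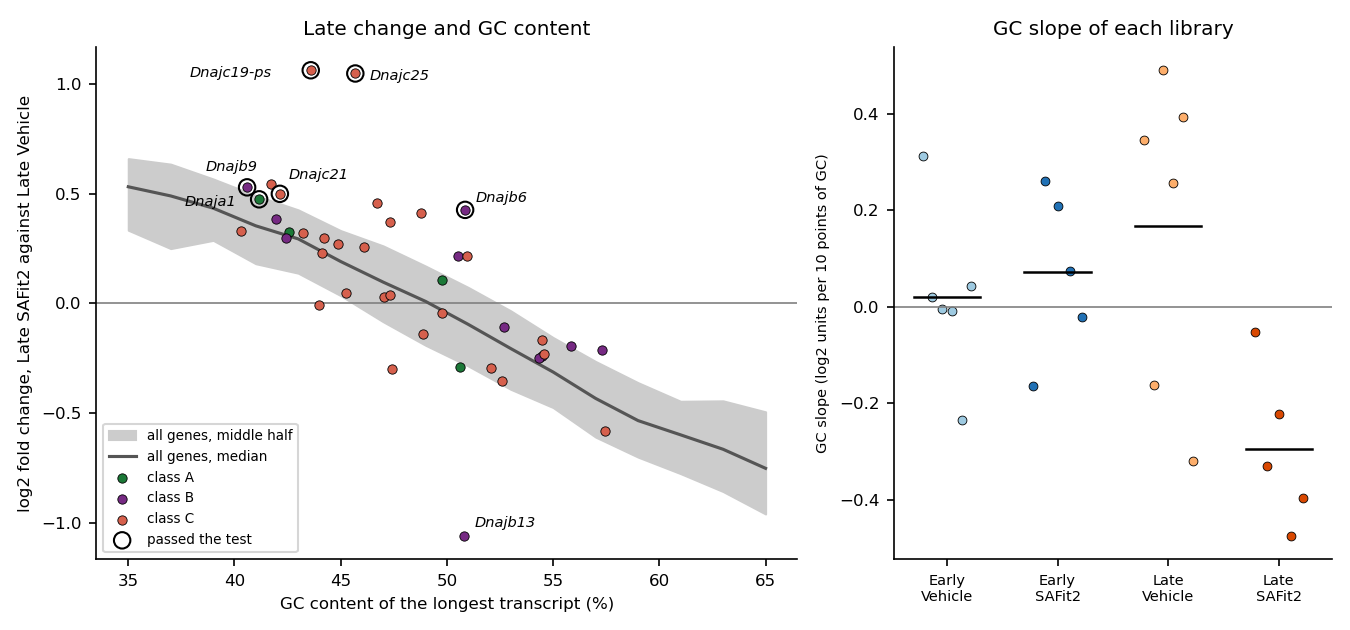
Late log2 difference of the 41 DnaJ genes against the GC content of the longest transcript (percent), over the median and middle quartiles of all genes (left), and the GC slope of each library, log2 per 10 points of GC, by group with its mean (right). Members below 45% GC have a median of 0.33 and those at 50% or more of -0.23, and the slopes average -0.30 in Late SAFit2 and 0.17 in Late Vehicle.

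The libraries differ in this respect within groups too. The slope of log2 CPM on GC content (log2 per 10 points of GC) averaged -0.30 in Late SAFit2 and 0.17 in Late Vehicle (exact permutation p 0.0281), and 0.07 in Early SAFit2 and 0.02 in Early Vehicle (exact permutation p 0.619). Late Vehicle 2 and 6, the mice that overlapped the treated range in Dnaja1, Dnajb9 and Dnajc21, had slopes of -0.16 and -0.32, and the other 4 Late Vehicle libraries 0.26 to 0.49. The median of the 6 called members stood 0.32 and 0.48 above the Late Vehicle mean in those 2 libraries, and 0.35 to 0.66 above it in Late SAFit2; these 6 were chosen for being higher there. The median of all 41 members stood 0.09 and 0.16 above it in the 2 vehicle libraries and 0.06 to 0.24 in Late SAFit2. Once each library was rid of its trend on GC content and length, limma called 0 members in the late comparison (11 at an unadjusted p under 0.05) and 0 of 16213 genes. The differences were then 0.19 for Dnaja1, 0.56 for Dnajb6, 0.20 for Dnajb9, 0.74 for Dnajc19-ps, 0.23 for Dnajc21 and 0.94 for Dnajc25, with adjusted p of 0.316, 0.115, 0.280, 0.231, 0.349 and 0.118. With the GC slope of each library as a covariate they were 0.0030, 0.067, -0.033, 0.64, 0.077 and 1.28 in the same order, with an adjusted p of 0.574 for Dnajc25 and 1.00 for the other 5. The late libraries differ in other ways too: the TMM scaling factor was 0.774 to 0.946 in Late SAFit2 and 0.902 to 1.03 in Late Vehicle, and the neuronal noncoding RNA Bc1 took 3.31 to 16.5% and 1.32 to 7.55% of reads, with Late Vehicle 6 (0.902, 7.55%) again near the treated mice. The treatment and these properties of the libraries cannot be told apart for the late differences of these genes, and their part in the result was not tested.

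Early dosing gave 0 called members by limma, 1 of 41 at an unadjusted p under 0.05, and 0 called with voom weights (1 at an unadjusted p). Of all genes 0% were called and 2.48% had an unadjusted p under 0.05. The median member difference was -0.02 (all genes 0.01) with 19 of 41 above 0, and the classes had 0.02 (A), -0.04 (B) and 0.01 (C). The 1 member was Dnajc27, a small GTPase with a J domain. It read 7.67, 7.29, 7.66, 7.47 and 7.43 in Early SAFit2 and 6.79, 7.32 and 7.54 at the lowest, median and highest of Early Vehicle. The groups overlapped, and the difference of 0.23, SE 0.11 (limma p 0.0415, adjusted 1.00; exact permutation p 0.0931) was 0.14 without Early Vehicle 5. Next on the higher side was Dnajc16, an ER membrane member, with 0.40, SE 0.22 (limma p 0.0879), which was 0.20 without Early Vehicle 5 and 0.19 with library quality weights. On the lower side were Dnajc3 with -0.17, SE 0.11 (p 0.145; -0.10 without Early SAFit2 2), and Dnajb13 with -1.01, SE 0.70 (p 0.158; -0.66 without Early SAFit2 1). The 6 members called after late dosing had early differences of -0.06 (Dnaja1), -0.04 (Dnajb6), -0.04 (Dnajb9), -0.40 (Dnajc19-ps), -0.03 (Dnajc21) and 0.25 (Dnajc25). All 4 members of vesicles and endosomes were above 0 in the early comparison, with a median of 0.16, Dnajc5 at 0.17 and Dnajc6 at 0.15, and none of them passed. Dnajc5 ran from 0.058 to 0.24 when a library was left out and from 0.021 to 0.21 in the other alternatives. Dnajc6 ran from 0.078 to 0.26 and from 0.024 to 0.20 in the same way.

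Whether early and late effects differ was tested directly, as the early SAFit2 effect minus the late one. limma called 0 members (lowest adjusted p 0.120) and 0% of all genes, and with voom weights also 0 members. At an unadjusted p under 0.05 there were 16 members (39.0%) by limma and 16 with voom weights, against 24.9% of all genes. By limma the 16 were 7 with GC content and length removed, 1 with the GC slope as a covariate and 10 with no variance trend, and when a library was left out they were 8 without Early Vehicle 5, 9 without Early SAFit2 3 or 4 or Late Vehicle 3 or 5, and 10 without Early Vehicle 4 or Late Vehicle 1. Of the 16, 13 were lower after early dosing (10.9% of all genes) and 3 higher (14.0%). The lowest p on the lower side were those of Dnajc3, -0.49, SE 0.16 (p 0.00453, adjusted 0.120), and Dnajc19-ps, -1.47, SE 0.49 (adjusted 0.120). Dnajc3 read 6.45, 6.05, 6.17, 6.4 and 6.48 in Early SAFit2 against a median of 6.52 in Early Vehicle, and 6.36, 6.71, 6.66, 6.81 and 6.67 in Late SAFit2 against a median of 6.24 in Late Vehicle. Its early and late effects thus pointed in opposite directions, and neither passed on its own. On the higher side were Dnaja3, 0.41, SE 0.14 (p 0.00728, adjusted 0.121), and Dnajc11, 0.39 (adjusted 0.167). The 6 called members had differences of -0.53 (Dnaja1), -0.47 (Dnajb6), -0.57 (Dnajb9), -1.47 (Dnajc19-ps), -0.53 (Dnajc21) and -0.80 (Dnajc25), with adjusted p of 0.126, 0.130, 0.141, 0.120, 0.166 and 0.176. In this fit a late effect unlike the early one is therefore not shown for any member. The count was 4 with the replicate block, 19 with library quality weights, 7 without Late Vehicle 6 and 0 in all other alternatives. Over the 12 alternatives that left out no library, the difference of Dnaja1 ran from -0.66 to -0.0072 and that of Dnajb6 from -0.70 to -0.072. Dnajb9 ran from -0.68 to 0.055, so its sign turned, and Dnajc21 from -0.64 to -0.060. Dnajc19-ps ran from -1.81 to -0.99 and Dnajc25 from -1.05 to -0.45.

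The mean SAFit2 effect over both timings had 6 members at an unadjusted p under 0.05 (14.6%; 5 higher, 1 lower), against 13.2% of all genes (6.03% higher, 7.18% lower), and the lowest adjusted p of a member was 0.318. That lowest value belonged to Dnajc25, whose mean effect was 0.65, SE 0.18 (p 0.00132). In Early SAFit2 it read 1.69, 1.81, 1.74, 1.37 and 1.45, against 0.82, 1.31 and 1.96 in Early Vehicle. The early groups overlapped, with all 5 treated mice above the vehicle median. It was followed by Dnajc24, which serves diphthamide synthesis, with 0.33, SE 0.14 (p 0.0303, adjusted 0.350), and by Dnaja1, Dnajb6 and Dnajb9 with 0.21, 0.19 and 0.24 (adjusted 0.363 each). In the 22 fits that leave out a library the p of the mean effect was above 0.05 in 15 for Dnaja1, 14 for Dnajb6, 13 for Dnajb9, 5 for Dnajc24 and 0 for Dnajc25, so the first 3 are weak results.

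The 1 member on the lower side of the mean effect was Dnajb13. It had no read in 1 Early SAFit2 mouse and read -0.56, -1.27, -2.60 and -0.99 in the other 4, against no read at the lowest, 0.02 at the median and 0.40 at the highest of Early Vehicle. In Late SAFit2 it had no read in 1 mouse and read -0.85, -1.94, 0.15 and 0.75 in the other 4, against -1.01, 0.15 and 1.18 in Late Vehicle. Groups overlapped at both timings. The mean effect was -1.04, SE 0.49 (p 0.0455, adjusted 0.367); next on that side was Dnajc11 with -0.16 (p 0.0852). For Dnajb13 the p was above 0.05 in 12 of the 22 fits that leave out a library (highest 0.117, without Late SAFit2 3). The same was so in 5 of 10 other alternatives. With voom weights and with the filter at log2 CPM of 1 this gene was too scarce to be tested. The mean effect of Dnajb13 is therefore a weak result too. Its size is not stable either: in the other alternatives the mean effect ran from -1.32 to -0.39. The late difference ran from -1.70 to -0.38 there and the early one from -1.02 to -0.40. Dnajb13 belongs to motile cilia, which in the cord sit on ependymal cells around the central canal. A list of 10 ependymal and ciliary genes (top gene Foxj1) summed to 52.3 CPM in Early Vehicle, 31.4 in Early SAFit2, 60.9 in Late Vehicle and 41.0 in Late SAFit2. Its median difference was -1.23 early (0 of 10 called by limma, 7 at an unadjusted p under 0.05, 0 called with voom weights) and -0.61 late (2 called, both lower), where 2.48% of all genes had such a p early and 6.72% were called lower late. The group means of Dnajb13 and of the list's sum were thus lower with SAFit2 at both timings. Dnajb13 did not pass at either timing on its own, and the sums were not tested. Late sums overlapped (35.8 to 81.6 CPM in Late Vehicle, 25.4 to 66.0 in Late SAFit2). Early sums did not (34.8 to 73.9 in Early Vehicle, 27.5 to 33.5 in Early SAFit2). Foxj1 was not lower early (17 CPM in Early Vehicle, 17.4 in Early SAFit2), while late it went from 24.5 in Late Vehicle to 13.8 in Late SAFit2. How much ependyma each piece of tissue held was not measured.

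Between the 2 vehicle groups 1 member was called (2.44%), against 9.11% of all genes (3.29% higher and 5.82% lower in Late Vehicle). With GC content and length removed the calls were 8 of 41 members and 2972 of 16213 genes, 1925 of the latter higher. With median centring 1198 of 2014 genes called were higher, so the balance of directions depends on the scaling. At an unadjusted p under 0.05 there were 6 members (14.6%), against 24.3% of all genes; the 6 were 1 without Late Vehicle 1, 3 without Early Vehicle 1, 10 without Late Vehicle 6 and 16 with GC content and length removed. The called member was Dnaja3 (chromosome 16, 4684070 to 4707695), the mitochondrial Hsp70 partner. It read 5.55, 5.83 and 5.92 at the lowest, median and highest of Early Vehicle and 6.13, 6.25 and 6.31 in Late Vehicle. The 2 groups did not overlap, as was so for 4.92% of all genes, and the difference was 0.45, SE 0.10 (limma p 7.13e-05, adjusted 0.00326; exact permutation p 0.00216, the smallest these groups can give). Dnaja3 was between 5.82 and 5.99 in Early SAFit2 and read 6.23, 5.90, 6.14, 5.65 and 5.79 in Late SAFit2, so 2 of the late treated mice lay in the Late Vehicle range and the other 3 in the Early Vehicle range. The difference between the vehicle groups may come from timing or from batch, which cannot be told apart.

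Of 81 genes of the wider chaperone system and its stress responses, 15 were called in the late comparison, where 12.1% of all genes were. Of 4 J-domain proteins with other names (median 0.26), the ER translocon protein Sec63 was called, with 0.41, SE 0.12 (adjusted p 0.0356), and Hscb (0.34) and Gak (-0.36) were not. Of 15 Hsp70 genes tested (median 0.15), Hspa13 was called higher with 0.52, SE 0.15 (0.0354), and Hspa12b lower with -0.66, SE 0.21 (0.0447); Hspa4l (0.35) and Hspa1a (-0.82) did not pass. The main partners of the called members, Hspa8 in the cytosol (0.15) and BiP, Hspa5, in the ER (0.37), were not called. Of 13 nucleotide exchange factors and related partners (median -0.03), 0 were called higher and 3 lower, among them Hspbp1 with -0.71, SE 0.17, and Bag6 with -0.60, SE 0.18; the highest were Bag1 (0.27) and Bag4 (0.26). Of 14 genes of Hsp90 and its co-chaperones (median 0.13), 3 were called higher (Chordc1, 0.67, SE 0.17, Hsp90b1, 0.51, and Hsp90aa1, 0.57) and 2 lower (Ppp5c, -0.42, and Unc45a, -0.56). Fkbp5, the gene of the drug's target, had 0.29 (adjusted 0.173). Its early difference was 0.18 (limma p 0.249) and its mean effect over both timings 0.23 (limma p 0.0376, unadjusted). Of 6 small heat shock proteins (median -0.26) limma called 0 (2 at an unadjusted p under 0.05, 0 called with voom weights), with Hspb11 at 0.56, Hspb2 at -1.15 and Hspb1 at -0.75. Of 10 chaperonin genes (median 0.18) 2 were called higher, Hspd1 with 0.45 and Cct4 with 0.38, while Cct7 and Cct5 had -0.02 and -0.00.

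Many of these late differences shrank with GC content and length removed. Among the genes called lower, Bag6 was then at -0.00, Stub1 at -0.01, Unc45a at -0.02, Ppp5c at -0.03, Hspa12b at -0.16, Syvn1 of the ER stress response at -0.17 and Hspbp1 at -0.19. Among those called higher, Canx of the ER stress response was at 0.15, Hspa13 at 0.17, Sec63 at 0.21, Cct4 at 0.23, Hsp90b1 at 0.25, Chordc1 at 0.27, Hspd1 at 0.37 and Hsp90aa1 at 0.38. Bag1 and Fkbp5, not called, moved up to 0.52 and 0.47.

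The lists of stress responses gave a mixed picture as well. Of 17 genes of the heat shock response (median -0.01) 3 were called higher, Chordc1, Hspd1 and Hsp90aa1, which the other lists also hold, and the regulator Hsf1 (-0.53) and Fkbp4 (-0.25) did not pass. Of 20 genes of the ER stress response (median 0.07) 2 were called higher (Canx, 0.42, and Hsp90b1) and 1 lower (Syvn1, -0.62), and Ddit3 (-0.48) did not pass. After early dosing limma called 0 of the 81 genes of the 8 lists (9 at an unadjusted p under 0.05, 0 called with voom weights). Of those 9, 7 are among the 20 genes of the ER stress response and all 7 were lower, Sdf2l1 (-0.50) and Hspa5 (-0.38) the most, where 2.48% of all genes had such a p. The early median of that list was -0.15, with 15 of 20 genes below 0, the opposite sign to its late median; the list as a whole was not tested. The 7 were 1 without Early SAFit2 3 or Early Vehicle 5, 2 without Early SAFit2 1 or Early Vehicle 6, and 3 with only the 2 groups in the fit. The counts of late calls fall to 0 in each list in some of the alternative fits. Hsp90aa1, Stub1, Fkbp5, Hspa5, Hspa8 and Sdf2l1 were picked for mention after their values were seen.

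Cell marker lists were read in the late comparison too. Their values carry no correction for GC content, so by themselves they do not measure changes in tissue make-up. The medians were -0.01 for 8 neuronal genes (0 higher, 1 lower called), 0.20 for 6 astrocyte genes (0 called), -0.11 for 6 oligodendrocyte genes (0 called) and -0.38 for 4 genes of oligodendrocyte precursors (1 lower). They were -0.00 for 6 microglial genes (0 called), -0.13 for 5 endothelial genes (1 lower), 0.02 for 5 motor neuron genes (0 called) and -0.26 for 3 red cell genes (0 called). Motor neuron genes summed to 29.1 to 228 CPM in Late SAFit2 (median 30.8) and to 17.8 to 116 in Late Vehicle (median 66.2). Libraries of 1 group thus differed widely in them. The 5 skeletal muscle genes in the table had a median of 2.33 with 1 called higher. They summed to a mean of 70 CPM in Late SAFit2 (median 5.62, highest 196) and 3.33 in Late Vehicle, so muscle RNA was present in some of the treated libraries. The part of these values in the late DnaJ differences was not tested. Over all marker lists, the ependymal one included, 58 genes were tested, of which limma called 6 late (20 at an unadjusted p under 0.05, 2 called with voom weights) and 0 early (8 at an unadjusted p, 0 called with voom weights). Of all genes, 12.1% were called late (5.33% higher, 6.72% lower) and 34.5% had such a p, and early 0% and 2.48%.

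Some members share sequence on the genome with a neighbour, which matters for reads that could be counted on either. Exons of Dnaja1 overlap those of Smu1 on the other strand over 608 bases, those of Dnajb6 overlap Gm5129 over 249 and those of Dnaja3 overlap Coro7 over 153. Dnajc25 shares 348 bases with Gm20503 on its own strand, and Dnaja3 shares 160 with Vasn. On the other strand Dnaja4 overlaps Wdr61 over 1581 bases, Dnajb13 overlaps Ucp2 over 305, and Dnajc7 overlaps Nkiras2 over 287 and Cnp over 154, and other members have overlaps too. The library kit keeps strand, but the strand setting used for counting is not stated, so reads of these neighbours may be part of the values given for the members.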

How the data were processed

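Lumbar spinal cord RNA of 4 groups, 22 mice in all, was sequenced, 1 library per mouse. By the submitters' processing notes, reads were trimmed with Trimmomatic, aligned with HISAT2 to mm10 and analysed with edgeR; no versions are given. The values deposited by the authors are log2 CPM with TMM scaling, 17306 genes by 22 libraries; the methods also mention TPM and voom, which these values are not. Whole read counts were recovered from them for 100.0% of the 379417 values checked (tolerance 0.02; the highest counts were not checked). Depth was 11352989 to 24433349 reads on genes (median 17732341), enough that only 4 scarce members (Dnajb3, Dnajb13, Dnajc19-ps, Dnajc25) have fewer than 100 reads in every library.

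Group means were fitted with limma 3.58.1 (R 4.3.3; lmFit, eBayes with a variance trend) to the 16765 genes that reach a log2 CPM of -1 in 5 libraries or more. Comparisons were SAFit2 against vehicle within each timing, their mean and difference, and the 2 vehicle groups. Tests were two-sided, with p adjusted by Benjamini-Hochberg over all genes tested. A gene was called at an adjusted p under 0.05 and at least 1.2-fold; the mean effect was counted at an unadjusted p under 0.05. Exact permutation tests used all 462 splits (5 against 6 mice) or 924 (6 against 6). GC content and length came from the longest GENCODE M21 transcript (16699 genes, 96.5%), with trends by loess (span 0.5). Coordinates and promoters were RefSeq, GRCm38.p6. Python 3.11.15, numpy 2.4.6, pandas 2.3.3, scipy 1.17.1 and matplotlib 3.10.9 were used.

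Members and lists (8 of chaperones and stress responses, 9 of cell markers, 1 of ependymal genes) were chosen with earlier results of these data known. Named genes are those called in any comparison, the 3 highest per class, the 2 higher and 2 lower of lowest p in the early, difference and mean comparisons and in each chaperone list, and 9 members of known role; any other is stated as picked after its values were seen. Alternatives were each library left out, no filter, a filter at log2 CPM of 1, log2(CPM + 1), voom weights (5 members called late), sample quality weights, no variance trend, only the 2 groups compared, median centring, GC and length trends removed with and without replicate number as a block, the block alone and, added once the data had been seen, the GC slope as a covariate and genes with a GC value only. No library was left out of the results given.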

Additional observations from a re-analysis of the deposited data

Results flagged for a closer look

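Of 88 sets of 1 named gene in 1 group, 2 had a library far below the others of its group: Dnajc16 in Late SAFit2 4 (4.10, the others 4.49 to 4.60) and Dnajc27 in Early Vehicle 5 (6.79). A gap this wide is met by chance in about 1 in 20 sets. Without Late SAFit2 4 the early minus late difference of Dnajc16 moved from 0.69 to 0.60, and without Early Vehicle 5 to 0.50. Late SAFit2 and Late Vehicle libraries differ in GC slope, timing is the batch, muscle RNA was present in some Late SAFit2 libraries, and 5 or 6 mice per group limit what small differences can be seen. Protein amounts were not measured, and the labels do not give the sex of the sequenced mice.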

How the results depend on the processing

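The late count of 6 members was 5 with voom weights, 6 with no filter, 6 on log2(CPM + 1), 7 among genes with a GC value and 8 with median centring. It was 0 with GC and length trends removed (11 at an unadjusted p), 0 when the replicate block was added to that (12 at an unadjusted p), 0 with the GC slope as a covariate (1 at an unadjusted p), 0 with only the 2 groups (18 at an unadjusted p) and 1 with no variance trend. It was 10 with a filter at log2 CPM of 1, 14 with replicate number as a block and 20 with sample quality weights (16 higher, 4 lower). All genes moved alike, from 2021 called to 0 of 16213 with GC and length removed, 62 with no variance trend and 6381 with quality weights. Leaving out 1 library gave 0 to 17: 0 without Late SAFit2 2, 4 or 5 or Late Vehicle 1, 3, 4 or 5; 17 without Late Vehicle 6; 11 without Late Vehicle 2, Late SAFit2 1 or Early Vehicle 5; 9 without Early Vehicle 1; 4 without Early SAFit2 2, 3 or 5; and 3 without Early SAFit2 4 or Early Vehicle 2 or 6. The 7 libraries without which the count was 0 are also those without which Dnaja1, Dnajb6 and Dnajc25 lost their call; Dnajb9 lost it in 10 of the 22 such fits, Dnajc21 in 15 and Dnajc19-ps in 16. Among the 13 other alternatives, Dnajc25 lost it in 4, Dnaja1, Dnajb6, Dnajb9 and Dnajc19-ps in 5 and Dnajc21 in 6. With the GC slope as a covariate the late difference of Dnajb9 turned to -0.033, its mean effect to -0.0056 and the mean effect of Dnaja1 to -0.00062. The early count by limma was 0 in each of the 22 fits that leave out a library and each of the other alternatives (1 at an unadjusted p, 0 with voom weights). The mean count of 6 was 1 without Late Vehicle 4, 2 without Early SAFit2 1, Early Vehicle 1, Late SAFit2 4 or Late Vehicle 3 or 5, 3 without Early SAFit2 4, Early Vehicle 2, 3 or 6, Late SAFit2 2 or 5 or Late Vehicle 1, and 11 without Late Vehicle 6. It was 2 with no variance trend, 3 with GC and length removed, 3 with the GC slope as a covariate, 9 with the block and 22 with quality weights. The early minus late count by limma of 0 (16 at an unadjusted p, 0 with voom weights) was 4 with the block, 19 with quality weights and 7 without Late Vehicle 6. Between the vehicle groups Dnaja3 was called in each fit made (0.40 to 0.48 when a library was left out), and the count was 8 with GC and length removed, 8 with quality weights, 3 with the GC slope as a covariate and 2 without Early Vehicle 1 or Late Vehicle 6. The block could not be fitted there, since blocks lie within 1 timing and the vehicle groups differ in timing. With median centring 1139 of 2063 late calls among all genes were higher, against 894 of 2021, and 1198 of 2014 between the vehicle groups, against 552 of 1527. Residuals of mice with the same replicate number had correlations of -0.236 to 0.317, 2 of 10 above 0.1. They were not set against a reference, so whether the numbers pair mice is not settled by them.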
